A study of Mus musculus with 24 samples.

Results

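The RNA-seq libraries of the unmodified parental mouse embryonic stem cells (mESCs) were compared here by batch: the 3 wild-type (WT) libraries of batch D against the 6 WT libraries of batches A, B and E, which held 2 libraries each. The members are all columns labelled WT in those 4 batches, 9 of the 24 libraries of the series. All 9 came from the same line, 129S6/SvEvTac, with a wild-type genotype and no treatment. The cells were grown on gelatin in serum medium with leukemia inhibitory factor (LIF), without feeder cells, and polyA RNA was sequenced from total RNA. The study used the WT libraries as the controls of its deletion lines and processed them in 5 batches, so a batch here is the letter in the sample label. What a batch shared (culture, RNA preparation, library preparation or sequencing run) is not named, and libraries were sequenced on either of 2 instruments, the assignment of which is not given in the sources used here. Differences between batches in any of these cannot be told apart.

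mESCs in serum and LIF are a mixed population. Most cells express the pluripotency network around Oct4 (Pou5f1), Sox2 and Nanog, some move toward primitive endoderm or toward the formative state that precedes germ layer formation, and a rare fraction passes through a state that resembles the 2-cell embryo. Cells that flatten on the dish also build actin stress fibers, which feeds the transcriptional cofactors YAP and MRTF and through them the factors TEAD and SRF. The comparison asks which gene classes vary between cultures of the same WT line when no gene was deleted.

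The 3 batch D libraries held 30688035 to 36126204 counts and the other 6 held 22854001 to 27411057. Within a batch, the log2 levels of any pair of libraries correlated with Pearson's r of 0.9958 or more across genes, and no pair agreed within counting noise. The mESC markers were expressed throughout: the summed level of Pou5f1, Sox2, Nanog, Zfp42 and Esrrb was 3255 to 3562 normalized CPM (read counts scaled to a common library total) in batch D and 2399 to 3130 in batches A, B and E. The 7 fibroblast markers summed to 20.6 to 21.5 CPM in batch D and 21.0 to 34.7 in the others; Lum and Postn were at 0 in all 3 batch D libraries and at most at 0.0384 and 0.42 CPM in the others, while Col1a1 and Thy1, given with the collagens, and Pdgfrb (2.96 to 4.14 against 2.66 to 3.43 CPM) were expressed. The Y-linked genes Ddx3y, Eif2s3y and Uty were expressed in all 9 libraries, with log2 differences of -0.10, -0.06 and -0.12 that did not pass the test, and Kdm5d had 8 counts or fewer in every library.

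Among genes that differed more than 2-fold, more were lower than higher in batch D. Of 15209 genes tested, 885 were lower and 284 higher in batch D than in the mean of batches A, B and E (edgeR, absolute log2 fold change above 1 and adjusted p below 0.01), which is 5.82% and 1.87% of the genes tested, or 7.69% in both directions. In 815 of the 885 lower genes every batch D library was below every other library, and in 225 of the 284 higher genes every batch D library was above, 5.36% and 1.48% of all genes (6.84% in both directions). Against each of batches A, B and E alone, 384 genes were called lower in all 3 comparisons (2.52%) and 60 higher (0.395%), 444 in all (2.92%); these comparisons share the batch D libraries. The median over all genes tested was 0.01, but the scaling between libraries sets it near 0, so it cannot show whether the typical gene shifted. Without the fold minimum the imbalance was absent, with 3486 genes higher and 3286 lower at edgeR adjusted p below 0.01. Batch A against the mean of the other 3 gave 297 higher and 91 lower genes, batch B 158 and 100, and batch E 167 and 95, which is 1.95% and 0.598%, 1.04% and 0.658%, and 1.1% and 0.625% of all genes. The 4 comparisons use the same 9 libraries and are not independent of each other, and batch D has 3 libraries where the others have 2. With any 1 batch D library left out the count was 1052 to 1132, and after all libraries were thinned to the smallest total it was 1119, with 844 lower.

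**Figure D1:**
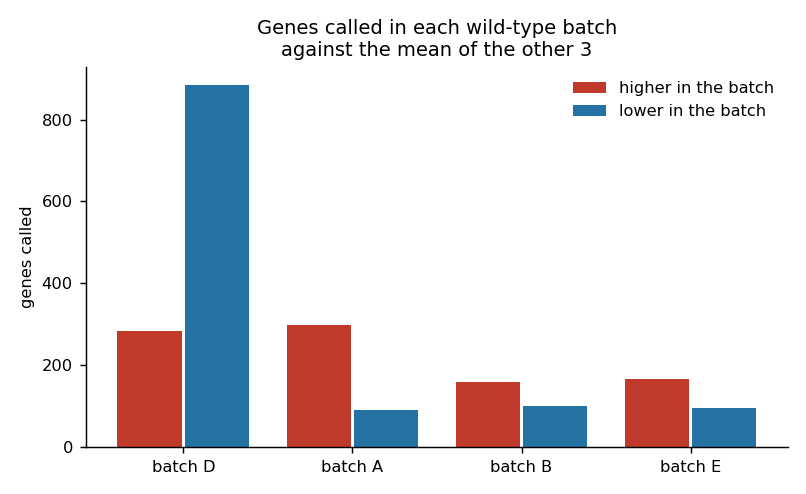
Number of genes called higher (red) or lower (blue) in each wild-type batch against the mean of the other 3 batches, 15209 genes tested. Batch D had 885 lower and 284 higher genes, and in batches A, B and E the higher genes were the more numerous.

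These calls rest on the spread between libraries of 1 batch, which was small (common biological coefficient of variation 0.0654) and may be partly technical, since nothing says that libraries of a batch came from separate cultures beyond the study's statement that replicates were independent and biological. They do not measure how far any further batch would differ. With the 4 batch means as the units, 1 against 3, limma gave 0 genes past adjusted p 0.01, 68 genes at adjusted p below 0.05, all with an absolute log2 fold change above 1 and 64 of them lower in batch D, and 2494 genes at unadjusted p below 0.05. The smallest limma adjusted p was 0.029. Among the 68 were Dab2, Col4a1, Col4a2, P4ha2, Acta2, Tagln, Thbs1, Ccn1, Cnn1, Tpm4, Btg2, Plk2, Cdkn1a, Ccng1, Trp53inp1, Cldn6, Itgav, Col1a2 and Bmp4, which are the members of the gene lists described next that passed.

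The genes were grouped into 41 lists of pathways, lineages and complexes. The primitive endoderm factors, the basement membrane, the targets of YAP and SRF, p53 targets, Hox genes, fibroblast markers and 2-cell-like genes had medians between -1.29 and -0.81, against 0.01 over all genes. In all 7 of them some members were called lower and none higher. At the other end, the S phase genes had the highest median of the lists with 3 or more genes tested, 0.37, with 0 of 24 members called. The 4 lowest of these lists had medians of -0.84 or lower against each of batches A, B and E taken alone, as the plot of list medians shows; these 3 comparisons share the batch D libraries.

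**Figure D2:**
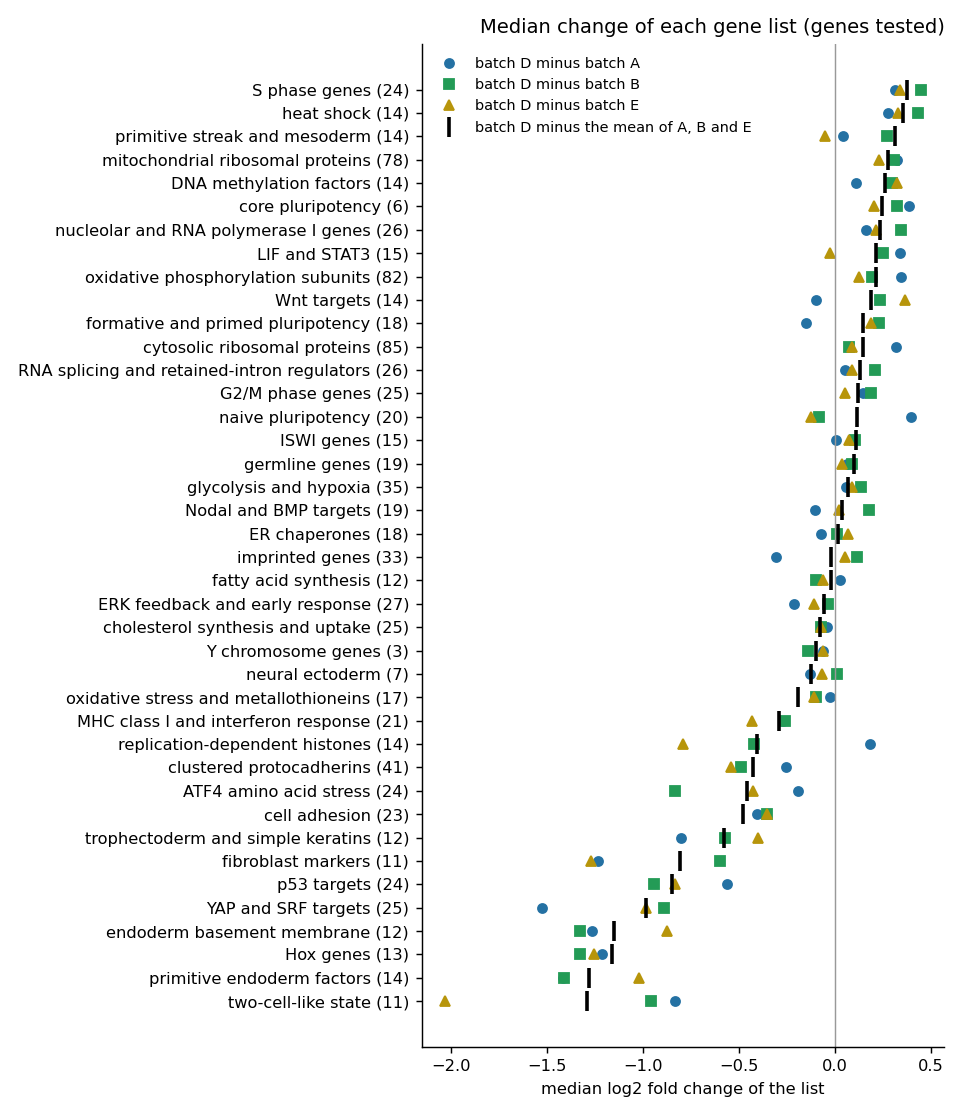
Median log2 fold change of each gene list with 3 or more genes tested (number in brackets) for batch D minus batch A (circles), minus batch B (squares), minus batch E (triangles) and minus the mean of the 3 (bars). The 4 lists at the bottom lie at -0.84 or lower in each comparison, and the metabolic and cell cycle lists lie near or right of 0.

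Primitive endoderm genes were lower in batch D as a group. Of 14 list members tested, 12 were called lower and none higher (all genes: 5.82% lower), with a median of -1.28, and all 14 lay below 0. In 11 of the 12 the batch D libraries did not overlap the others. In bulk RNA, fewer endoderm cells and less endoderm RNA per cell cannot be told apart. Gata6 and Gata4, the zinc finger factors that drive this lineage, were both called lower. Gata6 was at 12.2, 13.1 and 11.5 CPM in batch D, at 29.3 and 27.3 in batch A, 32.3 and 29.4 in batch B, and 23.2 and 23.9 in batch E. All batch D libraries were below the lowest library of batch E, the batch nearest to it. The log2 fold change was -1.16 ± 0.07 (SE; edgeR adjusted p = 2.9e-09).

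Gata4 (chromosome 14, 63198914 to 63271712, GRCm38.p6) was at 23.3, 32.0 and 28.3 CPM in batch D, against 96.7 and 100 in batch A, 109 and 106 in batch B, and 64.8 and 63.8 in batch E (log2 fold change -1.66 ± 0.08, edgeR adjusted p = 1.6e-10). The HMG-box factor Sox17 held 6.13, 6.89 and 6.38 CPM in batch D and 15.4 to 21.7 in the other libraries (-1.53 ± 0.08). Pdgfra, the receptor that marks endoderm precursors, held 15.3 to 17.6 CPM in batch D, 28.2 and 29.0 in batch E, and 43.6 to 49.4 in batches A and B. For Gata4, Sox17 and Pdgfra batch E was again the nearest to batch D, and no library overlapped.

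The largest differences of the list were in 2 endocytic genes, Dab2 and Cubn. Dab2, an adaptor for receptor endocytosis (chromosome 15, 6299788 to 6440715), was at 21.7 to 27.0 CPM in batch D and at 81.8 to 102 in the 6 other libraries (log2 fold change -1.95 ± 0.07, edgeR adjusted p = 1.1e-11). Cubn, the cubilin receptor, was at 16.1 to 21.7 CPM in batch D, 37.9 and 52.5 in batch E, and 77.2 to 120 in batches A and B (-2.0 ± 0.14). Its partner Amn and the receptor Lrp2 were lower by 1.28 and 1.0 on the log2 scale, although for Lrp2 the lowest batch E library, at 70.6 CPM, lay within the batch D range of 67.2 to 75.9. Foxq1 and Foxa2, further transcription factors of the lineage, had log2 fold changes of -1.37 and -1.15. Sox7 and Apoe were not called, at -0.64 and -0.51, and overlapped. The 7 marker genes of the lineage, Gata6, Gata4, Sox17, Sox7, Pdgfra, Foxa2 and Dab2, summed to 103 to 118 CPM in batch D and 242 to 351 in the other libraries; 6 of the 7 were called lower and none was at 0.

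**Figure D3:**
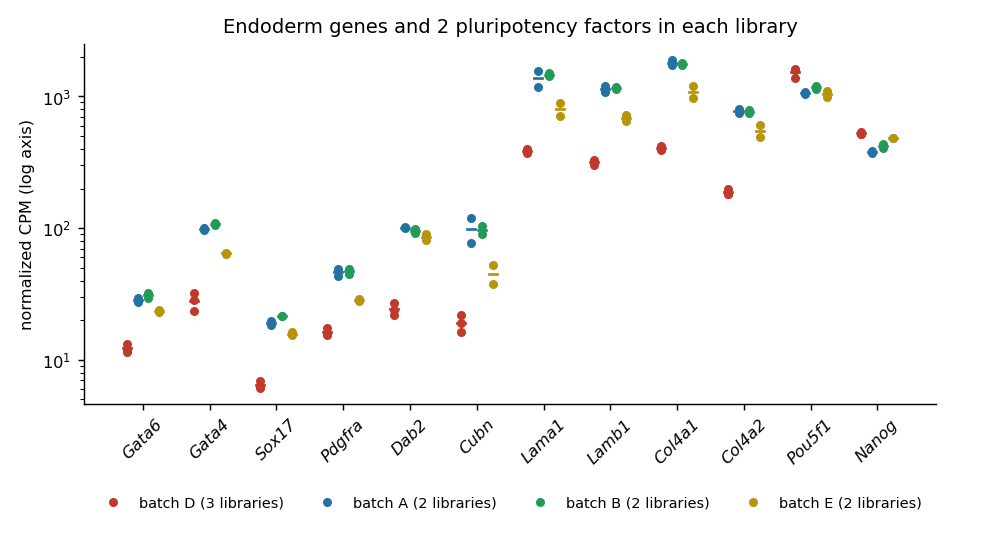
Normalized CPM (log axis) of primitive endoderm and basement membrane genes, and of Pou5f1 and Nanog, in each of the 9 wild-type libraries; points are libraries and short lines are batch means. For the first 10 genes the batch D points (red) lie below all others with batch E the nearest in most, and for Pou5f1 and Nanog they lie above.

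The basement membrane that endoderm cells secrete was lower too. Of 12 members tested, 6 were called lower and none higher (all genes: 5.82% and 1.87%), with a median of -1.15. The type IV collagen chains Col4a1 and Col4a2, neighbours on chromosome 8 that are read in opposite directions and whose annotated spans overlap at their starts (11198423 to 11312889 and 11312805 to 11449287), were both lower. Col4a1 was at 409 ± 15.3 CPM in batch D (SD, n = 3, highest 422), 1738 and 1880 in batch A, 1734 and 1800.2 in batch B, and 972 and 1197 in batch E (log2 fold change -1.89 ± 0.07, edgeR adjusted p = 9.5e-12). Col4a2 was at 180 to 198 CPM in batch D and 495 to 800 in the other libraries (-1.88 ± 0.07).

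The laminin chains Lamb1 and Lama1 had log2 fold changes of -1.62 ± 0.06 and -1.61 ± 0.09, and Lamb1 held 302 to 328 CPM in batch D against 655 to 1201 elsewhere. P4ha2, which hydroxylates prolines in collagen, and the collagen chaperone Serpinh1 were lower by 1.56 and 1.31 on the log2 scale. Sparc, a collagen binding glycoprotein, missed the fold limit at -0.998, and Lamc1 reached -0.87, both with no overlap between the groups. The nidogens Nid1 and Nid2 and the proteoglycan Hspg2 overlapped between the groups, at -0.25, -0.17 and -0.35. The summed primitive endoderm markers moved with this list (103 to 118 against 242 to 351 CPM); their part in it was not tested.

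Collagen genes as a family followed. Among the gene symbol families with at least 15 genes tested, 13 of 36 genes named Col were called lower (36.1%, against 5.82% of all genes) and none higher, with a median of -0.63. The 13 include Col4a1 and Col4a2 of the basement membrane list and Col1a1, Col1a2, Col3a1 and Col6a1 of the fibroblast list, so these counts share genes. Col1a1, the major fibrillar collagen chain, was at 2.0 to 2.65 CPM in batch D, 7.75 and 8.20 in batch A, 16.1 and 16.7 in batch B, and 10.1 and 11.3 in batch E (log2 fold change -2.33 ± 0.12). Its partner Col1a2 and Col3a1 were at 0.64 CPM or less in batch D, with log2 fold changes of -2.89 and -2.35. Of 11 fibroblast markers tested, 4 were called lower, all of them collagen genes, and none higher. Thy1, a surface marker of fibroblasts that mESCs also carry, was at 14.1 to 14.9 CPM in batch D and 7.35 to 10.6 elsewhere, and Pdgfrb overlapped. Of 17 genes named Krt, 6 were called lower and Krt13 higher.

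The largest decreases were in genes of the contractile cytoskeleton. Of 25 targets of YAP and SRF tested, 12 were called lower and none higher (all genes: 5.82% and 1.87%), with a median of -0.99, and 22 lay below 0. Acta1, skeletal muscle actin (chromosome 8, 123891758 to 123894775), was at 0.90, 0.95 and 1.24 CPM in batch D, 11.8 and 11.4 in batch A, 7.94 and 9.17 in batch B, and 4.28 and 4.96 in batch E. Its log2 fold change of -2.91 ± 0.14 (edgeR adjusted p = 2.2e-10) was the largest decrease among called, non-overlapping genes with a mean of at least 5 CPM. Acta2, smooth muscle actin, was at 4.19, 5.35 and 6.65 CPM in batch D and 25.7 to 47.7 in the other libraries (-2.72 ± 0.11).

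Tagln, transgelin (chromosome 9, 45929628 to 45936058), was at 14.7, 12.9 and 15.7 CPM in batch D, 118 and 119 in batch A, 78.0 and 75.6 in batch B, and 78.0 and 79.7 in batch E (-2.63 ± 0.07, edgeR adjusted p = 9.1e-13). The actin binding calponin Cnn1 had a log2 fold change of -2.24 ± 0.15, and the tropomyosins Tpm4 and Tpm1 had -1.37 ± 0.06 and -1.29 ± 0.06. Vinculin (Vcl), calponin 2 (Cnn2) and the light chain Myl9 were not called, at -0.66, -0.97 and -0.85, although none of the 3 overlapped. The cytoplasmic actins went the other way by less than the fold limit: Actb was at 2217 to 2434 CPM in batch D and 1669 to 2176 elsewhere (0.28 ± 0.05), and Actg1 was at 153 to 176 against 95.8 to 140 (0.40 ± 0.06). Srf itself overlapped, at 0.12 ± 0.06.

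Secreted and nuclear YAP targets were among those called lower. Ankrd1, a nuclear ankyrin repeat protein, was at 5.41, 3.97 and 4.03 CPM in batch D and 38.1 and 43.5 in batch A, with 15.3 to 18.3 in batches B and E (-2.35 ± 0.11, edgeR adjusted p = 1.0e-10). Thbs1, thrombospondin 1, was at 15.6 to 18.2 CPM in batch D, 117 and 133 in batch A, and 65.1 to 75.9 in batches B and E (-2.32 ± 0.07). Ccn1 held 44.7 to 45.4 CPM in batch D and 130 to 213 elsewhere (-1.85 ± 0.05), and Ccn2 held 93.6 to 101 against 155 to 301 (-1.20 ± 0.05). In Ankrd1, Thbs1 and Ccn1 batch A was the highest, and batch D the lowest, of the 4 batches.

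The promoters of 3 actin genes are shown because they carry the same regulatory element beside different directions of change. The CArG box is the sequence that SRF binds. The RefSeq table of promoters (250 bases before to 50 after the annotated start, GRCm38.p6, the first window listed per gene) held 20 of the 25 listed genes, and 7 of these 20 windows held a CArG box on either strand: those of Acta1, Actc1, Actg1, Cnn2, Myl9, Srf and Vcl. Among all 27025 genes with a window the share was 1.57%. The search was chosen after the values were seen. In the sequences, written 5′ to 3′ on the gene's strand, capitals mark the box.
Acta1, chr8:123894726-123895025, minus strand, lower in batch D: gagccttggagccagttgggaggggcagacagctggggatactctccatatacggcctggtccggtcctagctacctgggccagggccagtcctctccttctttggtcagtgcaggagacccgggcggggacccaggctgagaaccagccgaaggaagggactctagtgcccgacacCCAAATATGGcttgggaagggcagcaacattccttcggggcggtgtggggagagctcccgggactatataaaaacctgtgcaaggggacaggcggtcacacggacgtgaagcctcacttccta
Actc1, chr2:114052826-114053125, minus strand, lower in batch D: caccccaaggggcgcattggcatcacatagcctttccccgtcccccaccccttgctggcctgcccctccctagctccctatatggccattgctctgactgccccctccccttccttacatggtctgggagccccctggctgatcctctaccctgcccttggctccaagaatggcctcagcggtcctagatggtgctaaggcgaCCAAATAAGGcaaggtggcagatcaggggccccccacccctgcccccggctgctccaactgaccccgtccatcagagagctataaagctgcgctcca
Actg1, chr11:120348446-120348745, minus strand, not called: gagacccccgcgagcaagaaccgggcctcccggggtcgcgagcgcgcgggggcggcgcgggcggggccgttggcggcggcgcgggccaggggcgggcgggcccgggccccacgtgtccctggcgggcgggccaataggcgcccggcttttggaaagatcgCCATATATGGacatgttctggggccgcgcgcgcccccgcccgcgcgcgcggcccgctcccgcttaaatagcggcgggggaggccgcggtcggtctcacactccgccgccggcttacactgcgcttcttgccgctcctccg
The box began 73, 47 and 90 bases before the annotated start of Acta1, Actc1 and Actg1. Acta1 and Actc1 were the only 2 of the 7 genes called lower, and Actc1 was scarce, at 0.13 CPM or less in batch D and 0.19 to 0.83 elsewhere. Of the genes called lower in the whole comparison that have a window, 15 of 662 (2.27%) held a box, against 148 of 11929 genes tested (1.24%) and 0 of 212 called higher. These matches describe the letters in the window.

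Some genes of cell adhesion were lower. Of 23 tested, 5 were called lower and none higher (all genes: 5.82% and 1.87%; median -0.48), and 18 were not called. Cd44, the hyaluronan receptor, was at 1.97, 1.61 and 1.58 CPM in batch D, 9.54 and 12.2 in batch A, and 5.33 to 5.90 in batches B and E (-2.02 ± 0.14, edgeR adjusted p = 8.1e-09). The tight junction claudins Cldn7 and Cldn6 had log2 fold changes of -1.54 ± 0.12 and -1.40 ± 0.07, and the integrin chain Itgav had -1.27 ± 0.06. The keratin pair Krt8 and Krt18, which form the filaments of simple epithelia, was at 36.2 to 45.4 and 37.4 to 49.8 CPM in batch D, and at 97.7 to 182 and 94.7 to 196 elsewhere. Batch D was the lowest and batch A the highest of the 4 batches for both. Of the trophectoderm markers proper, Cdx2, Gata3 and Hand1 did not pass the test, and the sum of the 5 trophectoderm markers overlapped, at 9.49 to 12.2 CPM in batch D and 7.97 to 17.8 elsewhere.

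**Figure D4:**
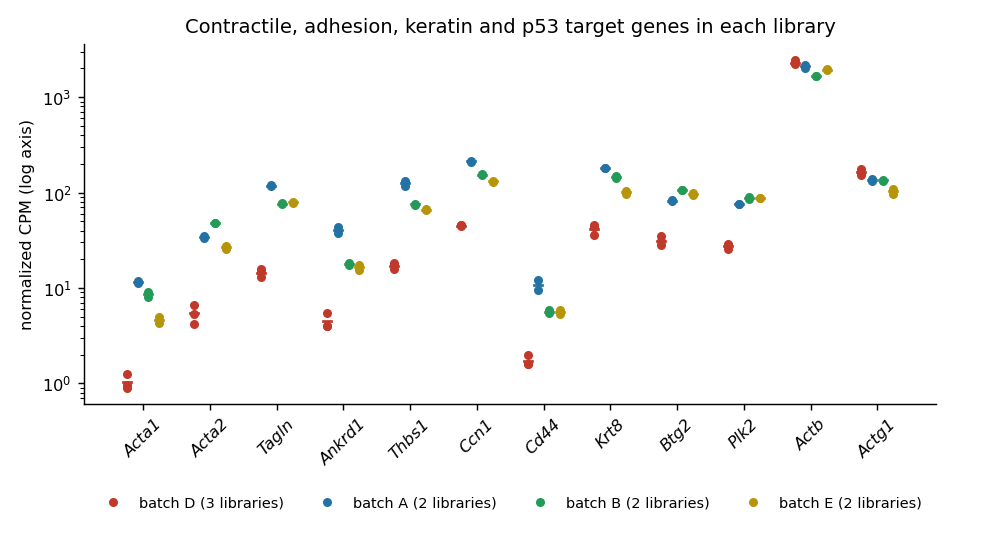
Normalized CPM (log axis) of contractile, YAP target, adhesion, keratin and p53 target genes in each of the 9 wild-type libraries; points are libraries and short lines are batch means. Batch D (red) lies below every other library for the first 10 genes and slightly above for the cytoplasmic actins Actb and Actg1.

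Some targets of p53 were lower while the gene for p53 was not. Of 24 genes of the p53 list tested, Trp53 itself among them, 8 were called lower and none higher (all genes: 5.82% and 1.87%), with a median of -0.85. Btg2, an antiproliferative transcript regulator, was at 27.9, 34.6 and 30.8 CPM in batch D, 81.7 and 83.3 in batch A, 107 and 106 in batch B, and 98.0 and 94.4 in batch E (log2 fold change -1.61 ± 0.07, edgeR adjusted p = 3.5e-11). The polo-like kinase Plk2 was at 25.5 to 28.5 CPM against 75.9 to 89.4 (-1.60 ± 0.06). The cyclin dependent kinase inhibitor Cdkn1a was at 25.4 to 29.3 CPM against 51.3 to 68.8 (-1.19 ± 0.06). Trp53inp1, Ccng1 and the BH3-only gene Bbc3 were lower by 1.32, 1.12 and 1.08 on the log2 scale. Gdf15 was called at -1.22, but batch A, at 1.11 and 0.90 CPM, overlapped batch D, and only batches B and E were higher. Fas was called at 0.17 CPM or less in batch D. Mdm2, the p53 ubiquitin ligase, did not pass the fold limit at -0.83, and Trp53 itself (0.48) and Sesn1 (0.62) lay above 0 without being called.

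Stress genes driven by ATF4 were lower in part. Of 24 tested, 5 were called lower and none higher (all genes: 5.82% and 1.87%; median -0.46). Atf3 was at 6.08 to 7.72 CPM in batch D, 14.3 and 16.6 in batch E, and 23.7 to 29.7 in batches A and B (-1.70 ± 0.09, edgeR adjusted p = 5.2e-10). Stc2 and Vldlr had log2 fold changes of -1.32 ± 0.07 and -1.56 ± 0.13. Nupr1 was called at -1.22, yet batch A (10.8 and 9.57 CPM) lay within the batch D range of 7.52 to 11.3, and batches B and E held 28.2 to 34.7. The median of this list was -0.19 against batch A and -0.83 against batch B. Of 35 glycolysis and hypoxia genes 2 were called, both lower, a share near the 5.82% of all genes: Ddit4, an mTORC1 inhibitor, at 12.8 to 13.1 CPM against 32.4 to 61.8, and the collagen hydroxylase P4ha1. ER chaperones (18), heat shock genes (14), and cholesterol synthesis genes (25) had no call.

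Several lists that were lower consist of scarce transcripts. Of the 3042 genes tested with the lowest mean level 12.2% were called lower, and of all genes 5.82%. Of 13 Hox genes tested 7 were called lower and none higher, with a median of -1.16, which was -0.66 without batch B; the summed level of the whole list was 9.31 to 9.59 CPM in batch D and 14.9 to 20.4 elsewhere. Hoxc13 was at 0.52, 0.89 and 0.71 CPM in batch D and 2.11 to 3.84 in the other libraries (-2.05 ± 0.21, edgeR adjusted p = 9.7e-07). Of 11 genes of the 2-cell-like state tested 6 were called lower, among them Zscan4a, at 0.17 to 0.64 CPM in batch D, 0.61 to 1.47 in batches A and B, and 2.77 and 2.93 in batch E. In only 3 of the 6 did the batch D libraries not overlap the others, and none was called lower against each of batches A, B and E. The median of the 2-cell-like list was -0.84 against batch A, -0.96 against batch B and -2.03 against batch E. Dppa2, an activator of this state that most mESCs express, was above every other library, at 111 to 117 CPM (0.72). Zscan4 and Usp17l genes belong to families of near-identical copies, so the share of each copy is uncertain.

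Of 21 genes of MHC class I and the interferon response tested, 4 were called lower and 1 higher, against 5.82% and 1.87% of all genes, with a median of -0.29. B2m, the light chain of MHC class I, was at 11.6 to 12.9 CPM in batch D and 24.4 to 38.4 elsewhere (-1.25 ± 0.11), and the peptide transporter Tap1 was at 2.85 to 3.74 against 6.71 to 11.5 (-1.47 ± 0.11). Rsad2 was the gene called higher, and it overlapped. The clustered protocadherins had 13 of 41 members called lower, but 11 of these were the 14 tested Pcdha genes, whose levels ran together across libraries (lowest pairwise r 0.934) at a mean of 0.43 to 0.53 CPM. Pcdha genes share their 3′ exons, so the reads of each are uncertain.

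Few core or naive pluripotency genes were called, a share near that of all genes called in either direction (7.69%). None of the 6 core factors was called, and all 6 lay above 0. Pou5f1 was at 1630, 1374 and 1597 CPM in batch D, 1072 and 1044 in batch A, 1144 and 1198 in batch B, and 991 and 1100.1 in batch E (0.49 ± 0.06), above every other library. Nanog was also above, at 518 to 541 against 372 to 487 CPM (0.31 ± 0.05). Sox2 overlapped, with batch E the highest at 457 and 454 CPM. Utf1, a chromatin factor of undifferentiated cells, was the nearest to the fold limit at 0.93 ± 0.06.

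Of 20 naive factors, 9 of which lay below 0, only Gbx2 was called: it was at 175, 160 and 177 CPM in batch D and 60.8 to 105 elsewhere (1.14 ± 0.05, edgeR adjusted p = 1.0e-10). The Gbx2 call missed a limit when a certain batch or library was left out. Klf4, Esrrb and Zfp42 were not called, at 0.15, 0.14 and 0.23, and Klf4 and Esrrb overlapped. Of 18 formative and primed genes 3 were called higher and 1 lower (all genes: 1.87% and 5.82%). Foxd3, a forkhead factor, was at 39.1 to 44.0 CPM against 14.3 to 32.1, and Sox3 was at 5.21 to 6.66 against 1.07 to 3.85. Lef1, the Wnt pathway factor, was called but overlapped with batch A, which held 6.68 and 6.57 CPM where batches B and E held 1.57 to 2.14. Fgf5, the usual marker of this state, was the 1 called lower, at 0.23 to 0.26 CPM in batch D, and highest in batch A, at 2.30 and 1.85.

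Among signalling genes, increases and decreases stood side by side. The BMP ligand Bmp4 was at 117, 131 and 131 CPM in batch D, 47.7 and 47.5 in batch A, 45 and 46.7 in batch B, and 58.0 and 60.9 in batch E (log2 fold change 1.32 ± 0.05, edgeR adjusted p = 1.9e-11). Notum, a secreted enzyme that inactivates Wnt ligands, was at 25.9 to 27.1 CPM against 4.43 to 10.9 (1.93 ± 0.09), while Rnf43, a ligase that removes Wnt receptors, was lower at 0.54 to 0.72 against 1.92 to 2.45 CPM. Both are known as feedback targets of Wnt, and they went in opposite directions. Myc was at 198 to 218 CPM in batch D and 69.9 to 137 elsewhere (1.12 ± 0.05), and its call missed a limit when a certain batch or library was left out.

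Cdkn1c, an imprinted cell cycle inhibitor on chromosome 7 (143458339 to 143461059), was among the 10 largest increases, at 152, 124 and 149 CPM in batch D, 61.2 and 56.2 in batch A, 29.5 and 32.3 in batch B, and 51.1 and 50.8 in batch E (1.65 ± 0.06). It was the only imprinted gene of 33 tested that was called higher, and Sgce was the only 1 called lower (-1.26), against 1.87% and 5.82% of all genes. The largest increase was that of Skor1, a corepressor gene on chromosome 9 (63138164 to 63148961), at 17.7, 15.8 and 14.9 CPM in batch D, 5.01 and 5.41 in batch A, 1.91 and 2.22 in batch B, and 1.55 and 1.74 in batch E (2.63 ± 0.10, edgeR adjusted p = 1.2e-11). The neighbouring ranks were 9330159F19Rik (2.21), Sned1 (2.09), the annotated hairpin locus Mir682 (1.80), Soga3 (1.73), the myosin Myo1f (1.71), the guidance receptor Robo4 (1.69) and the endothelial adhesion gene Esam (1.62). The annotated spans of Soga3 and 9330159F19Rik overlap on chromosome 10 (29143996 to 29199630 and 29198942 to 29230779), so their increases may not be separate. Counts at Mir682 are polyA reads over that locus and not mature miRNA. On the other side, after Acta1, Acta2, Tagln, Ankrd1, Col1a1 and Thbs1, the protease Prss23 (-2.52), the cytokine Csf1 (-2.33), the phosphatase Ptprb (-2.32) and the hexokinase-like Hkdc1 (-2.29) completed the 10 largest decreases.

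Few members of the growth and housekeeping lists were called, where 7.69% of all genes were called in either direction. For the lists with few genes a count of 0 is near that share. All 24 S phase genes lay above 0, with values from 0.08 to 0.83, and E2f8, at 149 to 172 CPM against 71.3 to 101, was the highest. None of 25 G2/M genes was called (median 0.12). The mitochondrial ribosomal proteins had a median of 0.28 with 0 of 78 called, and the nucleolar list 0.23 with 0 of 26. Among 14 DNA methylation factors none was called; Trim28, a corepressor, was at 3404 to 3574 CPM against 1946 to 2462 (0.70 ± 0.05). The 15 genes of the ISWI list, which holds the subunits that the study deleted in other lines beside further subunits and Ctcf, had no call and ranged from -0.35 to 0.25. Of 82 subunits of oxidative phosphorylation tested 3 were called higher (all genes: 1.87%). Of these, Ndufs5 overlapped, at 6.63 to 12.5 CPM in batch D and 11.2 and 21.1 in batch E, and Atp5j2 fell to 0.96 and below the fold limit when library size alone was used for scaling; the same holds for Rpl39l, the only 1 of 85 cytosolic ribosomal protein genes called, at 0.95.

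In a test for any difference among the 4 batches, batch D included, 2202 genes (14.5%) differed (edgeR, any difference, range of batch means above 1 on the log2 scale), and the median gene's batch means spanned 0.53. Among lists with 10 or more genes tested, those with the highest share of such genes were the primitive endoderm factors (12 of 14), the basement membrane (8 of 12), the YAP and SRF targets (16 of 25) and the 2-cell-like genes (7 of 11). The batch D libraries are part of this test: against the mean of the other 3, batches A, B and E had no basement membrane gene called, and 2, 2 and 0 primitive endoderm genes. Fibroblast markers (6 of 11), Wnt targets (7 of 14), Nodal and BMP targets (9 of 19), p53 targets (11 of 24) and formative genes (8 of 18) followed. At the low end stood cholesterol synthesis (0 of 25), G2/M genes (0 of 25), ER chaperones (0 of 18), ISWI genes (0 of 15) and DNA methylation factors (0 of 14). Core pluripotency (1 of 6, Utf1) and naive factors (2 of 20) varied at about the share of all genes or below it.

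**Figure D5:**
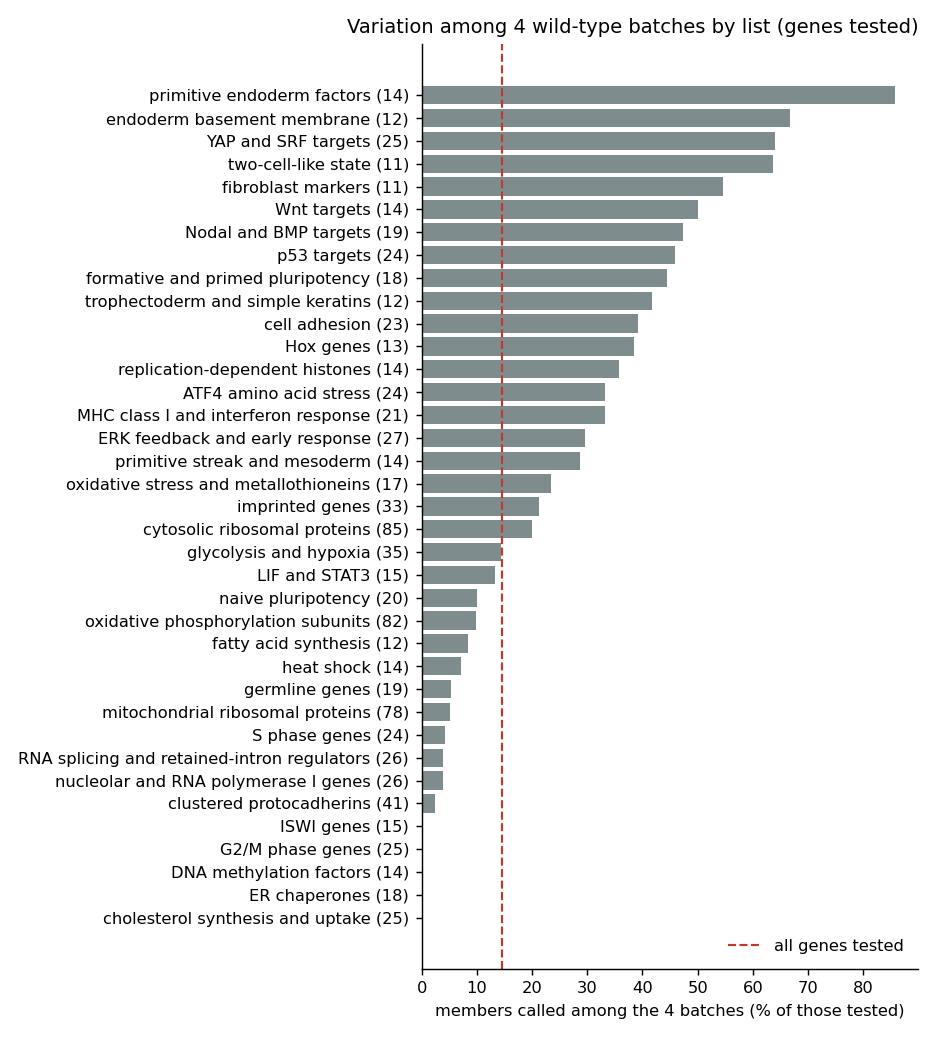
Share of each list's tested members that differed among the 4 wild-type batches (bars, percent; number tested in brackets; lists with 10 or more tested), with the share over all 15209 genes, 14.5%, as a dashed line. The primitive endoderm, basement membrane, YAP and SRF, and 2-cell-like lists lie farthest right of the line, and the cholesterol, G2/M, ER chaperone, ISWI and DNA methylation lists lie at 0.

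The other batches had leanings of their own. Against the mean of the other 3, batch A had 10 of 25 YAP and SRF targets, 4 of 12 trophectoderm and keratin genes and 3 of 18 formative genes called higher and none lower, where 1.95% of all genes were higher. Thbs1 (1.51), Tagln (1.41) and Ankrd1 (1.89) were among them, as were Fgf5 (2.21) and Cdh2 (1.28). Batch E had 6 of 11 genes of the 2-cell-like state and 4 of 14 replication-dependent histone genes called higher (1.1% of all genes), with Zscan4c at 1.99 and H2aw at 1.67. Batch B had 3 of 11 fibroblast markers higher, the collagens Col1a1 (1.51), Col1a2 (1.69) and Col3a1 (1.24), where 1.04% of all genes were. Each batch enters the mean of the others, so the low batch D levels of contractile genes also enter the batch A values. Among genes with a mean of at least 5 CPM, the widest ranges were in Mir6236 (4.66), Ndufs5 (4.07), Gm7367 (4.05), Acta1 and Skor1. Mir6236 was at 6.68 and 5.56 CPM in batch E and 64.1 to 167 elsewhere, and Gm7367 was at 75.3 and 62.5 CPM in batch E and 2.19 to 27.1 elsewhere. How reads matching several places were counted is not given in the sources used here, so genes with near-identical copies are uncertain.

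Broad gene classes are given next. The 3042 genes with the shortest transcript width (up to 2229 bases) had a median log2 fold change of 0.13 and the 3042 widest (from 6968 bases) of -0.09, with 4.54% and 7.2% called lower and 4.37% and 1.12% called higher. The 3042 genes with the lowest mean level (up to 2.01 CPM) had 12.2% called lower and 5.06% higher, and the 3042 with the highest (from 84.8 CPM) 0.95% and 0.26%. Chromosome medians lay between -0.11 for the X chromosome and 0.11 for chromosome 8. Of 635 long noncoding RNA genes tested, 32 were called higher and 16 lower (5.04% and 2.52%). Of 52 snoRNA genes, with a median of 0.46, 5 were higher (9.62%) and none lower. Of the 14317 protein-coding genes 238 were higher and 852 lower (1.66% and 5.95%), and of all genes 1.87% and 5.82%. Rpph1, the RNA of RNase P, which lacks a polyA tail, was at 1.02 to 1.44 CPM in batch D and 0.15 to 0.43 elsewhere; it was the only 1 of 12 such RNAs that passed the filter. The part of RNA selection or library preparation in these shifts was not tested.

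Of the deletion libraries, 9 from the same batches were compared as a set with no sample in common with the WT libraries; the 2 Wstf knockout libraries of batch A were not used in it. The 3 batch D libraries labelled Cecr2 knockout were compared with the 6 knockout libraries of Rsf1 (batch A), Tip5 (batch B) and Acf1 (batch E), so genotype and batch cannot be told apart in them. Of 15048 genes tested, 515 were lower (3.42%) and 393 higher (2.61%) in batch D. Of the 841 genes lower in WT batch D and tested in both sets, 341 were also lower here, 40.5% of the WT list and 67.3% of the 507 lower in the deletion set. Of the 268 higher genes 90 were also higher, 33.6% and 23.6%. The primitive endoderm list had a median of -1.73 with 11 of 14 lower, the basement membrane list -1.14 with 7 of 12, and the YAP and SRF targets -0.83 with 10 of 24. The p53 targets had -0.53 with 1 of 24 lower, and the 2-cell-like genes had 1.62 with 4 of 11 higher, the opposite direction to the WT libraries. No Hox gene of 13 and no fibroblast marker of 8 was called in the deletion set (medians -0.38 and -0.56), and of 20 MHC class I and interferon genes 4 were higher and 1 lower.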

How the data were processed

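RNA was measured in mESCs as polyA RNA-seq, with batch and genotype taken from the sample labels. The authors aligned reads to the mm10 genome with QuasR in spliced mode (HISAT2), summed the reads over the gene models of UCSC's knownGene table, and deposited these raw counts for 24594 genes. Whether counting used the strand is not given in the sources used here, so overlapping and antisense genes are uncertain. The same deposited table holds a width in bases per gene, a value of the authors' annotation (unit other). Gene IDs were matched to RefSeq on GRCm38.p6, which held 24570 of them.

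From the counts of the 9 WT libraries, genes were filtered with filterByExpr, scaled with TMM factors and fitted with edgeR 4.0.16 in R 4.3.3 (quasi-likelihood test, legacy form, 1 coefficient per batch, the contrast being batch D minus the mean of the other 3). This departs from the study's model, which had a genotype term over all libraries and is given as an alternative. A gene was called at an absolute log2 fold change above 1 and a Benjamini-Hochberg adjusted p below 0.01, the limits of the study. CPM are normalized by TMM, errors are SE, and 3 counts in a library, taken as the lowest detectable level, were 0.0868 to 0.129 CPM and cover counting error only. DESeq2 1.42.0 and limma 3.58.1 served as alternatives, as did other scalings and filters, left-out libraries and batches, and thinning.

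On simulated counts of 15209 genes for the comparison of batch D with the mean of the others, 97% of the genes changed 2.5-fold and 100% of those changed 4-fold were called, 0% of those changed 1.5-fold, and 0 unchanged genes. A 1.5-fold change lies below the fold limit, and 92.5% of those genes passed the adjusted p limit. Unchanged genes had the same mean in every simulated batch, so the simulation cannot show how spread between batches affects the calls. Genes named were the 10 largest increases and decreases that were called, did not overlap and had a mean of at least 5 CPM, up to 3 called members of each list (or the 2 with the lowest p), 11 fixed markers and the 5 widest 4-batch ranges; all other genes named were chosen after their values were seen. Some list members are counted but not reported by name here. The libraries compared and the lists were chosen with earlier results of these data known, so a list's count is a description and not independent support.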

Additional observations from a re-analysis of the deposited data

Results flagged for a closer look

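The named genes below had a batch D difference in the WT libraries that differed from the batch D difference in the deletion libraries (Cecr2 knockout in batch D against Rsf1, Tip5 and Acf1 knockout in batches A, B and E), by an edgeR interaction test over 18 libraries with an adjusted p below 0.01 and a difference above 1 on the log2 scale. In all, 477 of 15438 genes passed, 187 of them among the 1169 genes called in WT. Most named genes were picked for a large WT difference, so a smaller difference in other libraries is partly expected from that choice. The deletion lines differ in genotype as well as batch, and these cannot be told apart. Each value is the WT difference minus that in the deletion libraries.

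Among the genes higher in WT batch D the difference was larger in WT for Skor1 (2.16), Sned1 (1.82), Rpph1 (1.57), Atp5l (1.48), Cdkn1c (1.31), Esam (1.17), 9330159F19Rik (1.07) and Soga3 (1.04). Cdkn1c, for example, was at 101 to 114 CPM in the Cecr2 knockout libraries and 111 to 129 in those of Rsf1 and Acf1, with 40.4 and 41.2 in those of Tip5.

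Among the genes lower in WT batch D, the decrease was larger in the deletion libraries for Ankrd1 (3.05), Ptprb (1.98), Hkdc1 (1.52), Col4a2 (1.46), Col4a1 (1.35) and Gata4 (1.22). Ankrd1 was at 0.15 to 0.21 CPM in the Cecr2 knockout libraries and 5.37 to 15.5 in the other 6. The decrease was larger in WT for Wnt3 (-2.08), Acta1 (-2.03), Col1a1 (-1.67), Hoxc13 (-1.65), H3c14 (-1.34) and Stc2 (-1.02). Actc1 (-4.48) and Psmb8 (-2.14) failed the count filter in the deletion libraries alone. Their values exceeded their WT decreases of -2.68 and -1.70, so the fit gave no decrease for them in the deletion libraries. Both were scarce there, at 0.385 CPM or less.

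A further 3 genes, which were tested in both sets, pointed in opposite directions. Zscan4c (-4.65), Zscan4a (-3.50) and Fgf5 (-3.14) were lower in batch D in WT and, in the fit, above the mean of the other batches in the deletion libraries. In these the Rsf1 libraries lay above batch D for Zscan4a and overlapped it for Zscan4c and Fgf5, as the Tip5 libraries did for Fgf5. All had levels of about 3 CPM or less. Ddx3y (4.88), which did not differ between WT batches, was at 0.028 to 0.11 CPM in the Cecr2 knockout libraries, 0.041 and 0.043 in those of Rsf1, 1.12 and 1.62 in those of Tip5 and 68.8 and 91.4 in those of Acf1.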

How the results depend on the processing

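With batch means as the unit (limma) the count of genes that differed between batch D and the mean of the others was 0 in place of 1169, since the p-values of the report measure the spread within batches and these the spread between batch means. A test against a 2-fold change (glmTreat) left 293 genes, 243 of them lower, and dropping the fold minimum gave 6772, 3486 higher and 3286 lower. For any difference among the 4 batches, dropping the fold minimum gave 8331 in place of 2202. Leaving out 1 library gave 1052 to 1161 genes for batch D and 1978 to 2221 for the 4 batches, and leaving out a whole batch gave 966 to 1276 and 1710 to 1812. With library size only, 238 genes were higher and 970 lower in batch D. The fit over all 24 libraries gave 1245 genes for batch D and 2437 for the 4 batches. DESeq2 called 1058, with no adjusted p for 3508 genes. Thinning the libraries, chosen after seeing the data, gave 1119. Taking the endoderm list genes out of the finished result, also chosen then, left 1151, a count fixed by the calls already given. No called gene named by the rule reversed its direction under the alternatives run for it. Of 78 named genes called, all missed adjusted p 0.01 with batch means as the unit and 56 missed it there alone; Atp5j2, Evx1, Ndufs5, Lef1, Nes, H2aw, Krt19, Gbx2, Myc, Klf6, Ier5 and several transcripts under 1 CPM also missed a limit without 1 batch or library. The primitive endoderm list kept a median between -1.42 and -1.17, the basement membrane between -1.31 and -1.07, the YAP and SRF targets between -1.17 and -0.96, and the p53 targets between -0.91 and -0.77. The Hox median ranged from -1.42 without batch E to -0.66 without batch B.

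Replicate numbers in the labels name libraries of a batch; the deviations of same-numbered libraries correlated between 0.00869 and 0.173, not above 0.1 in every pair, so they were not taken as paired. A replicate block gave 1087 genes for batch D (820 lower), 2125 for the 4 batches and 810 for the deletion libraries, each within 1.5 times the count without the block, and no library pairing was crossed. Depth limits statements on genes below about 1 CPM, such as most Hox and 2-cell-like genes.

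Some genes that were not called changed sign: without batch A, Sox2 (-0.044), Klf4 (-0.084) and Esrrb (-0.11); without batch E, Mir6236 (-0.72) and Eif2s3y (0.0049). With 1 library left out Eif2s3y ranged from -0.134 to 0.016, the latter without batch D replicate 2.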

Other observations

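Of the genes outside the lists that passed adjusted p 0.05 with batch means as the unit (limma), 4 are given here, picked after their values were seen. Wls, which carries Wnt ligands to the surface, was at 2.63 to 2.86 CPM in WT batch D and 10.3 to 15.9 in the other WT libraries (limma adjusted p = 0.029). Cald1, an actin binding caldesmon, was at 58.9 to 63.2 CPM against 177 to 237 (limma adjusted p = 0.029), and the amyloid precursor gene App was at 12.3 to 12.8 against 32.0 to 54.1 (limma adjusted p = 0.043). Col12a1 was at 0.33 CPM or less in batch D and 1.53 to 2.83 elsewhere (limma adjusted p = 0.035).

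Batch E held its own outliers among replication-dependent histones and among genes with many copies. H2ac12 was at 2.10 and 2.70 CPM in batch E, at 0.034 CPM in 1 batch D library and at 0 in the other 6 libraries. The ribosomal protein gene Rpl17 was at 32.3 and 52.5 CPM in batch E and 6.80 to 12.8 elsewhere, and Rps2 was at 92.4 and 124 against 21.6 to 47.5. Both belong to families with processed copies, and how reads matching several places were counted is not given in the sources used here. Imprinted Igf2 was highest in batch A, at 91.3 and 93.9 CPM, with 35.1 to 49.8 in the other batches, and the metallothionein Mt2 was at 44.8 and 52.3 CPM in batch E, 97.5 to 114 in batch D and 203 to 261 in batches A and B.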
